A study of Homo sapiens with 12 samples.

Results

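The human mitochondrial genome carries 37 genes, and its transcripts were followed across 4 groups of a Burkitt lymphoma cell line. Every gene placed on chromosome M in the count table was taken, which gave 37 of 60707 genes. They comprise 13 genes for protein subunits of the respiratory chain and the ATP synthase, 2 genes for the rRNAs of the mitochondrial ribosome and 22 genes for mitochondrial tRNAs. The cells were Raji, an established human B-cell line, with genotype Smarca4+/+ in all groups and an auxin-inducible degron on the SMARCA4 protein, the ATPase of the SWI/SNF chromatin remodeller. They were collected at 24 h as GFP-low or GFP-high cells after FX1, an inhibitor of the transcriptional repressor BCL6, or after DMSO, its solvent. The groups were GFP-low FX1, GFP-low DMSO, GFP-high FX1 and GFP-high DMSO, with 3 libraries each. The labels do not say what GFP reports in these cells, which groups received auxin or how many clones the line holds. They also do not say whether libraries with the same label were grown apart, and p-values measure only the scatter among these libraries, part of which may be technical. RNA was total RNA depleted of rRNA.

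Library totals lay between 20454028 and 42556661 counts, and libraries of one group varied little, with a common biological coefficient of variation estimated at 1.67%. SMARCA4 RNA lay at 452 to 460 CPM in GFP-low FX1, 392 to 401 CPM in GFP-low DMSO, 386 to 391 CPM in GFP-high FX1 and 376 to 384 CPM in GFP-high DMSO, and since the degron acts on the protein this does not check the labels. All 6 B-cell markers were expressed, with a summed level of 1788 to 1794 CPM in GFP-low FX1, 2357 to 2375 CPM in GFP-low DMSO, 2209 to 2228 CPM in GFP-high FX1 and 2650 to 2667 CPM in GFP-high DMSO. Summed T and NK cell markers lay at 2.52 to 7.51 CPM across libraries. Summed myeloid markers, with S100A8 at 0, lay at 5.99 to 6.44 CPM in GFP-low FX1 and at 2.00 to 3.56 CPM in the other groups, and summed epithelial and stromal markers, with KRT18, KRT19 and COL3A1 at 0, at 15.2 to 17.3 CPM in GFP-low FX1 and at 8.12 to 13.2 CPM elsewhere. The part of these small differences in the results was not tested.

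Mitochondrial DNA is transcribed from both strands as long precursors that run through many genes. Most mRNAs and both rRNAs are flanked by tRNAs, and RNase P and ELAC2 cut the precursor at the tRNA ends to free the RNAs between them. The strand called minus in the table carries MT-ND6 and 8 of the tRNA genes, and the plus strand carries the other 28 genes. Most mature mRNAs are then held stable by the LRPPRC and SLIRP proteins, and mRNAs are degraded by the PNPT1 and SUPV3L1 complex. In B cells, as elsewhere, nuclear genes supply every protein of this machinery and most subunits of the respiratory chain.

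The sequences of 5 members are given as read from GENCODE release 29 transcripts on GRCh38, whose coordinates were the same as those of the count table for 37 of 37 genes. MT-ATP8 lies on the plus strand at chrM:8366-8572, and the capitals mark the 46 bases that it shares with the start of MT-ATP6. The 4 tRNA genes with the highest mean level are MT-TT at chrM:15888-15953, MT-TW at chrM:5512-5579 and MT-TF at chrM:577-647 on the plus strand and MT-TS1 at chrM:7446-7514 on the minus strand, and the capitals in these mark the anticodon.
MT-ATP8: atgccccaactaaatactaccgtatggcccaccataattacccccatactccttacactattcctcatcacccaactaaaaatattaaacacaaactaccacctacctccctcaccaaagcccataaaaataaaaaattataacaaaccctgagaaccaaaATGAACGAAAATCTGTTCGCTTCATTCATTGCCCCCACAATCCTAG
MT-TT: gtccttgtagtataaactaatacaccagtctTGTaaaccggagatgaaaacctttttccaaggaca
MT-TW: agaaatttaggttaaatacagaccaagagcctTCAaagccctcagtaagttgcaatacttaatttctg
MT-TF: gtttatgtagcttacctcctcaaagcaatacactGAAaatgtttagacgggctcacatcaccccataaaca
MT-TS1: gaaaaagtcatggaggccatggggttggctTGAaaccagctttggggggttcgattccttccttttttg

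GFP-high DMSO cells gave the highest share of counts to mitochondrial genes and GFP-high FX1 cells the lowest, with both GFP-low groups between them. The 37 genes took 5.09%, 5.05% and 5.13% of counts in the GFP-low FX1 libraries and 4.73%, 4.72% and 4.84% in the GFP-low DMSO libraries. They took 4.23%, 4.28% and 4.32% in GFP-high FX1 and 7.88%, 7.91% and 7.84% in GFP-high DMSO. No 2 groups overlapped, and the largest step was in the GFP-high gate, where the share in FX1 libraries was 0.543 times that in DMSO libraries. In the GFP-low gate the share in FX1 libraries was 1.07 times that in DMSO libraries. Between gates, GFP-low stood at 1.19 times GFP-high under FX1 and at 0.605 times GFP-high under DMSO. Each of these 4 differences gave p = 0.1 in the two-sided exact permutation test, the smallest that 3 against 3 libraries allow. The 95% Wilson interval of a single library's share was at most 0.0107 percentage points to either side, which covers counting error only. In bulk RNA, fewer mitochondrial transcripts per cell and fewer cells with a high level cannot be told apart, and a share also moves with the nuclear RNA in the same library.

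The 3 classes of mitochondrial RNA had their highest share in different groups. The 13 mRNAs held nearly all of these counts, at 5.05% ± 0.0369 of the library in GFP-low FX1, 4.73% ± 0.0639 in GFP-low DMSO, 4.09% ± 0.0394 in GFP-high FX1 and 7.77% ± 0.0318 in GFP-high DMSO (SD, n = 3 each). The 2 rRNAs, which the depletion kit also removes, took 0.0350% ± 0.000168 in GFP-low FX1, 0.0249% ± 4.78e-05 in GFP-low DMSO, 0.183% ± 0.00372 in GFP-high FX1 and 0.0996% ± 0.00258 in GFP-high DMSO. The 22 tRNA genes took 0.00734% ± 0.000224 in GFP-low FX1, 0.00275% ± 0.000223 in GFP-low DMSO, 0.00538% ± 0.000141 in GFP-high FX1 and 0.00412% ± 0.000228 in GFP-high DMSO. So the mRNA share was highest in GFP-high DMSO, the rRNA share in GFP-high FX1 and the tRNA share in GFP-low FX1, with no overlap between groups in any class.

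**Figure D1:**
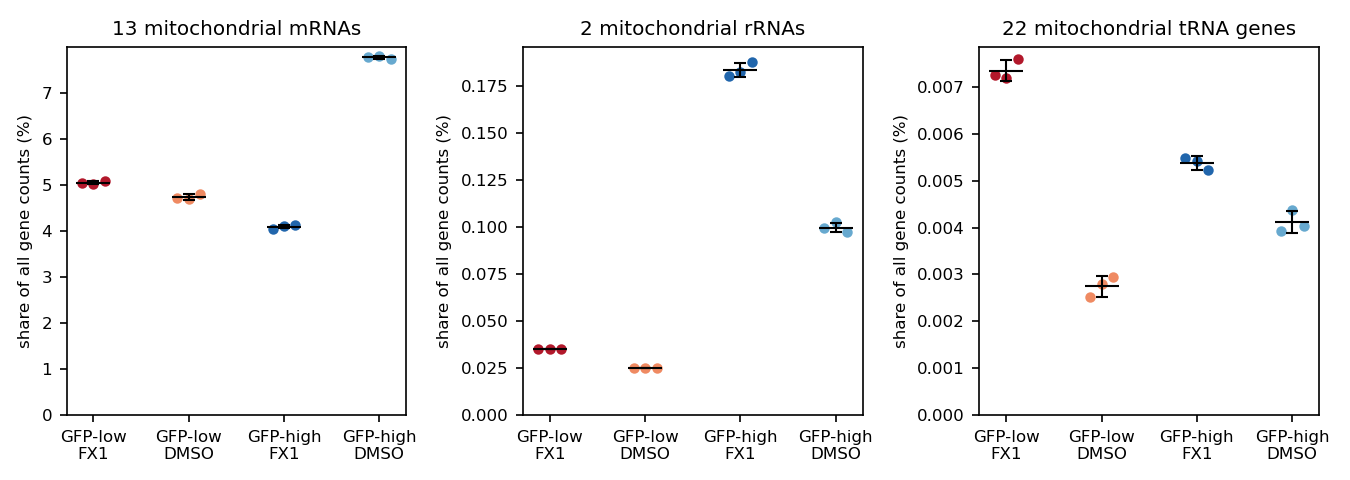
Share of all gene counts (%) on the 13 mitochondrial mRNAs, the 2 rRNAs and the 22 tRNA genes, by group; dots are libraries, bars the mean and SD of 3 libraries. The mRNA share peaks in GFP-high DMSO near 7.77%, the rRNA share in GFP-high FX1 near 0.183% and the tRNA share in GFP-low FX1 near 0.00734%.

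Set against length, the cytochrome c oxidase mRNAs led in every group. MT-CO1, the catalytic subunit of complex IV, had the highest mean CPM of all genes in the table. In CPM per kilobase it reached 9560 ± 73.5 in GFP-low FX1, 9018 ± 125 in GFP-low DMSO, 7276 ± 86.2 in GFP-high FX1 and 13985 ± 131 in GFP-high DMSO (SD, n = 3 each). MT-CO2, MT-CO3 and MT-ND4 followed in every group, in an order in which only MT-CO2 and MT-CO3 in GFP-high FX1 overlapped between libraries. MT-ND6, the minus-strand complex I mRNA, was the lowest mRNA in every group, at 273 ± 5.20 CPM per kilobase in GFP-low FX1, 438 ± 20.5 in GFP-low DMSO, 345 ± 6.32 in GFP-high FX1 and 608 ± 8.38 in GFP-high DMSO. MT-ATP8 came next after these 4 in 3 groups, with 9825 ± 314 CPM per kilobase in GFP-high DMSO, but had rank 8 in GFP-low FX1, with 2359 ± 68.6, where it overlapped with MT-ND4L. Both rRNAs lay below all mRNAs in 3 groups and above MT-ND6 in GFP-high FX1, where MT-RNR1 had 868 ± 19.7 and MT-RNR2 655 ± 12.3 CPM per kilobase.

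**Figure D2:**
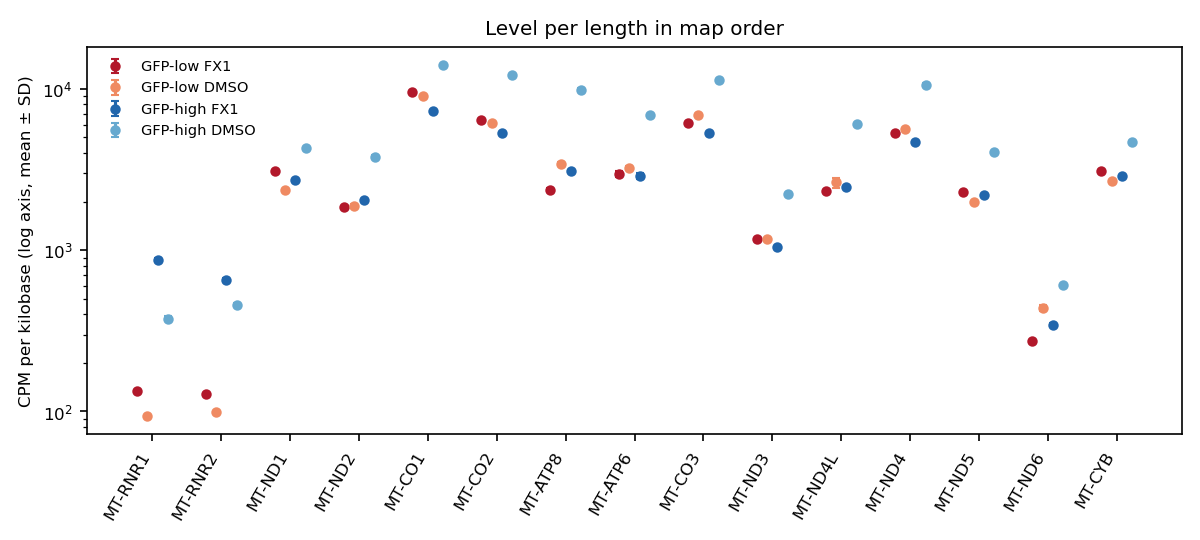
Level per length (CPM per kilobase, log axis) of the 2 rRNAs and 13 mRNAs in map order, mean and SD of 3 libraries per group. MT-CO1 is the highest and MT-ND6 the lowest mRNA in every group, and the rRNAs of GFP-high FX1, at 868 and 655, stand above those of the other groups.

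Of the 37 genes, 36 passed the low-count filter and were tested; MT-TN, the asparagine tRNA gene, had 6 counts in all and was not. In GFP-high cells FX1 went with lower levels of all 13 mitochondrial mRNAs. They were called lower 13 times and higher 0 times, where 34.6% of all tested genes were called lower and 33.8% higher, 68.4% in all, and their median log2 change was -1.09, against -0.01 over all genes. MT-CO1 had 11091, 11356 and 11211 CPM in GFP-high FX1 and 21574, 21360 and 21763 CPM in GFP-high DMSO. The 2 groups of libraries lay far apart, and MT-CO1 fell by 0.94 ± 0.0091 on the log2 scale (SE, adjusted p = 2.1e-188). MT-CO2 and MT-CO3, the other core subunits of complex IV, changed by -1.21 ± 0.010 (adjusted p = 1.9e-146) and -1.10 ± 0.0098 (adjusted p = 1.1e-206).

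Complex I and complex III mRNAs fell in the same comparison by differing amounts. MT-ND1 averaged 2616 ± 31.6 CPM in GFP-high FX1 and 4091 ± 78.2 CPM in GFP-high DMSO, which was the smallest fall, at -0.65 ± 0.011 (adjusted p = 4.5e-126). MT-CYB, the cytochrome b of complex III, averaged 3264 ± 49.8 CPM in GFP-high FX1 and 5367 ± 40.1 CPM in GFP-high DMSO, a log2 change of -0.72 ± 0.010. MT-ND2 and MT-ND5, antiporter-like subunits of complex I, each changed by -0.89, MT-ND3 by -1.09, MT-ND4 by -1.18 and MT-ND4L by -1.29. MT-ND6 changed by -0.82 ± 0.020 (adjusted p = 4.5e-90). All libraries of the 2 groups were separated for each of these genes.

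The largest fall was that of MT-ATP8, a membrane subunit of ATP synthase. It had 637, 648 and 638 CPM in GFP-high FX1 and 2039, 2096 and 1966 CPM in GFP-high DMSO. The change was -1.67 ± 0.031 (adjusted p = 2.8e-11), and that of MT-ATP6, which forms part of the proton channel and is translated from the same mRNA, was -1.27 ± 0.038 (adjusted p = 1.4e-09). The 46 bases shared by both genes, shown in capitals above, are 22.2% of MT-ATP8 and 6.75% of MT-ATP6, and how reads in them were counted is not given in the sources used here, so the split between the 2 genes is uncertain. With GC and length trends removed MT-ATP8 no longer had the largest fall, at -1.07 beside -1.11 for MT-ATP6.

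In GFP-low cells FX1 left the mRNAs without a common direction. Of the 13, 5 were called higher, 6 lower and 2 in neither direction, where 33.7% of all tested genes were called higher and 34.3% lower, 68% in all, and the median change was -0.03, against -0.01 over all genes. MT-CO1 had 14872, 14662 and 14693 CPM in GFP-low FX1 and 13834, 13758 and 14124 CPM in GFP-low DMSO. The groups did not overlap, and the change was 0.08 ± 0.0091 (adjusted p = 4.8e-17). MT-ND1 averaged 2943 ± 36.1 CPM in GFP-low FX1 and 2251 ± 26.6 CPM in GFP-low DMSO and rose most, by 0.39 ± 0.011 (adjusted p = 2.8e-86). MT-ND5 and MT-CYB each rose by 0.21. MT-CO2 was called higher at 0.06 ± 0.010, but without any one of the 3 GFP-high DMSO libraries it was at 0.02 and no longer passed (adjusted p = 0.18 to 0.19).

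Among the mRNAs lower with FX1 in GFP-low cells, MT-ND6 and MT-ATP8 stood apart in size. MT-ND6 had 142, 141 and 146 CPM in GFP-low FX1 and 227, 221 and 242 CPM in GFP-low DMSO. It fell by 0.68 ± 0.021 on the log2 scale (adjusted p = 6.2e-74), with no overlap between the groups. MT-ATP8 had 498, 472 and 495 CPM in GFP-low FX1 and 697, 693 and 732 CPM in GFP-low DMSO, a change of -0.53 ± 0.033 (adjusted p = 3.7e-07). MT-CO3 and MT-ND4L each changed by -0.18, MT-ATP6 by -0.12 and MT-ND4 by -0.08. MT-ATP6 no longer passed without GFP-low DMSO replicate 2 or without GFP-low FX1 replicate 1, at -0.10 and -0.09. MT-ND2 at -0.03 and MT-ND3 at -0.01 did not pass, though MT-ND2 passed at -0.08 and -0.07 without GFP-high DMSO replicate 1 or 2 and MT-ND3 at -0.05 without any one of the 3.

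The direction of these small changes depended on the scale. With trends over GC content and length removed, an alternative chosen after seeing the data, 10 of the 13 mRNAs were called higher with FX1 in GFP-low cells and 2 lower, MT-ATP8 turned to 0.17, MT-ND4L to 0.34, MT-ND4 to 0.19 and MT-ATP6 to 0.06, and MT-ND2 and MT-ND3 to 0.26 and 0.52. MT-ND6 and MT-CO3 stayed lower, at -0.42 and -0.04. With library totals MT-ATP6 at -0.07 and MT-ND4 at -0.02 did not pass with FX1 in GFP-low cells (adjusted p = 0.18 and 0.27). In GFP-high cells all 13 mRNAs stayed lower with FX1 under both alternatives. Their median was -0.74 with GC and length trends removed and -0.99 with library totals. Across the 12 plus-strand mRNAs the change with FX1 ran with gene length, with a Spearman's rho of 0.67 in each gate, and with GC content, with a rho of 0.58 in GFP-low and 0.55 in GFP-high cells. These are descriptions over genes that share libraries, precursors and, in part, reads. The parts that length and GC content had in the results were not tested.

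**Figure D3:**
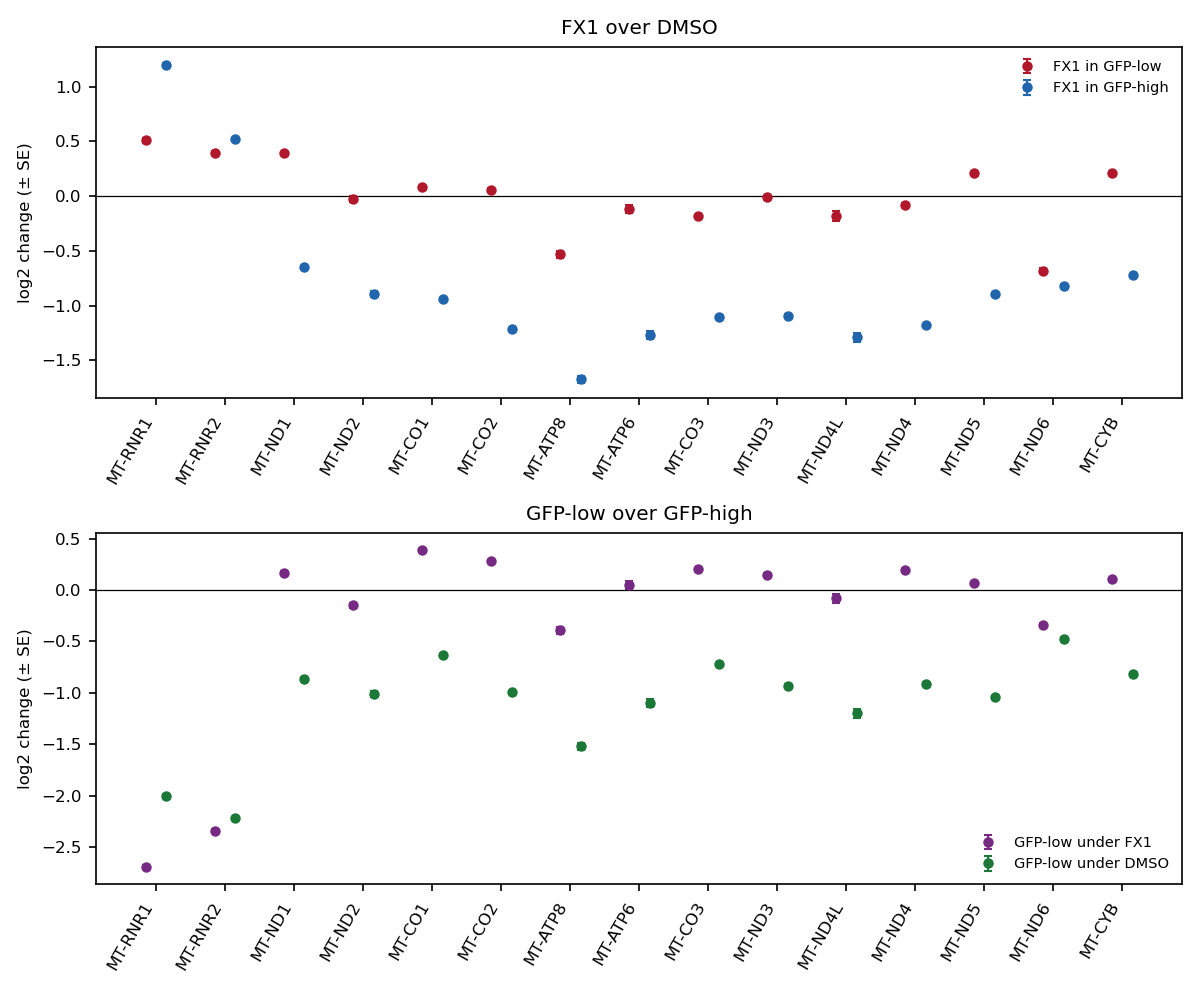
Log2 change (± SE) of the 2 rRNAs and 13 mRNAs in map order: FX1 over DMSO in each gate (upper panel) and GFP-low over GFP-high under each treatment (lower panel). All 13 mRNAs lie below 0 with FX1 in GFP-high cells and in GFP-low cells under DMSO, while the points for FX1 in GFP-low cells lie between -0.68 and 0.39 for mRNAs and change sign with the scale for 6 of them.

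Without FX1, GFP-low cells had lower levels of every mitochondrial mRNA than GFP-high cells. All 13 were called lower and 0 higher, where 24.4% of all tested genes were called lower and 21.7% higher, 46.1% in all, and the median change was -0.93, against 0.03 over all genes. MT-CO1 had the DMSO values given above in both gates and changed by -0.63 ± 0.0091 (adjusted p = 1.2e-150). MT-ATP8 again had the largest change, -1.52 ± 0.031 (adjusted p = 1.3e-10), and MT-ND6 the smallest, -0.48 ± 0.019 (adjusted p = 7.6e-56). MT-ND4, a proton-pumping subunit of complex I, averaged 7733 ± 142 CPM in GFP-low DMSO and 14542 ± 345 CPM in GFP-high DMSO, a change of -0.91 ± 0.015. This comparison and that of FX1 in GFP-high cells share the GFP-high DMSO libraries. Scaling by library totals alone moved the median of all genes here to 0.16, and all 13 mRNAs were still called lower, with a median of -0.80.

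Under FX1 the gates were closer. Of the 13 mRNAs, 8 were called higher in GFP-low cells and 3 lower, where 30.2% of all tested genes were called higher and 26.7% lower, 56.9% in all, and the median was 0.11, against 0.08 over all genes. MT-CO1 was higher in GFP-low cells by 0.39 ± 0.0091 (adjusted p = 9.0e-109), MT-CO2 by 0.28 and MT-CO3 by 0.20. MT-ATP8 was lower by -0.39 ± 0.033, MT-ND6 by -0.34 ± 0.021 and MT-ND2 by -0.15 ± 0.027 (adjusted p = 4.9e-06, 4.2e-35 and 0.0012). MT-ND2 did not pass with library totals, at -0.05 (adjusted p = 0.15), or with GC and length trends removed, at -0.02 (adjusted p = 0.56), and MT-ATP8 turned to 0.03 with the trends removed. MT-ATP6 at 0.05 and MT-ND4L at -0.08 did not pass, but MT-ND4L passed at -0.13 without any one GFP-high DMSO library and at -0.09 without GFP-low DMSO replicate 3, and turned to 0.14 with the trends removed. With library totals MT-ATP6 passed as higher, at 0.15 (adjusted p = 0.0099), and 9 mRNAs were called higher and 2 lower. MT-ND5, called higher at 0.07, was at 0.02 and did not pass without any one GFP-high DMSO library.

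The FX1 effect on mitochondrial mRNAs differed between the gates. In the test of the difference, the effect in GFP-low cells minus that in GFP-high cells, all 13 were called higher and 0 lower, where 14.8% of all tested genes were called higher and 16.5% lower, 31.3% in all. The 12 plus-strand mRNAs had differences between 0.86 for MT-ND2 and 1.26 for MT-CO2, with a median of 1.09. The minus-strand mRNA MT-ND6 had a difference of 0.13 ± 0.029 (adjusted p = 4.4e-05), since it fell in both gates.

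The shift of MT-ND6 against the plus-strand mRNAs was tested with each library scaled to its total over the 13 mRNAs. Per 1000 counts of plus-strand mRNA, MT-ND6 had 2.99, 3.00 and 3.07 counts in GFP-low FX1, 4.94, 4.83 and 5.15 in GFP-low DMSO, 4.38, 4.39 and 4.46 in GFP-high FX1 and 3.85, 3.84 and 3.78 in GFP-high DMSO. The 4 groups did not overlap, and the order of the treatments was opposite in the 2 gates. Relative to the mRNA total, MT-ND6 changed with FX1 by -0.72 ± 0.023 in GFP-low cells (adjusted p = 1.0e-101) and by 0.20 ± 0.022 in GFP-high cells (adjusted p = 2.5e-18). The difference between gates was -0.92 ± 0.032 (adjusted p = 1.4e-94). It was -0.86 with GC and length trends removed. MT-ND6 lies opposite the plus-strand precursor, and whether reads were counted by strand is not given in the sources used here, so MT-ND6 and antisense reads from the plus-strand transcript cannot be told apart.

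On the same scale, with FX1 in GFP-low cells, 4 mRNAs were called higher and 8 lower relative to the mRNA total, where 31.3% of all genes were called higher and 36.2% lower, 67.5% in all. In GFP-high cells 6 were called higher and 7 lower, where 79% and 5.30% of all genes were, 84.3% in all, because the divisor itself fell there. MT-ATP8 made up 1.03% ± 0.0229 of mRNA counts in GFP-low FX1, 1.52% ± 0.0239 in GFP-low DMSO, 1.55% ± 0.0179 in GFP-high FX1 and 2.43% ± 0.0654 in GFP-high DMSO (SD, n = 3 each). Its change with FX1 was -0.57 ± 0.017 in GFP-low cells and -0.64 ± 0.016 in GFP-high cells (adjusted p = 1.3e-105 and 6.1e-126), which came to -0.07 and -0.25 with GC and length trends removed.

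In raw counts, MT-ATP8 was also lower with FX1 relative to its neighbour MT-ATP6 on the shared transcript. Per 100 counts of MT-ATP6 there were 24.2 ± 1.48 counts of MT-ATP8 in GFP-low FX1, 32.2 ± 1.23 in GFP-low DMSO, 32.9 ± 1.3 in GFP-high FX1 and 43.2 ± 1.05 in GFP-high DMSO. The ratio with FX1 was 0.753 times that with DMSO in GFP-low cells and 0.761 times in GFP-high cells (exact permutation p = 0.1 each). MT-ND4L, which overlaps MT-ND4 by 7 bases, showed a smaller step of the same kind, at 9.39 ± 0.0799, 10.1 ± 0.592, 11.4 ± 0.0748 and 12.3 ± 0.209 counts per 100 of MT-ND4 in GFP-low FX1, GFP-low DMSO, GFP-high FX1 and GFP-high DMSO. Both are the shorter gene of their pair. With GC and length trends removed, neither stood below its neighbour in the change with FX1. MT-ATP8 and MT-ATP6 were then at 0.17 and 0.06 in GFP-low cells and at -1.07 and -1.11 in GFP-high cells. MT-ND4L and MT-ND4 were at 0.34 and 0.19 and at -0.83 and -0.94. Both ratios were also lower in GFP-low than in GFP-high cells. That of MT-ATP8 stood at 0.736 times under FX1 and 0.744 times under DMSO, and that of MT-ND4L at 0.826 and 0.821 times. For MT-ND4L this was a larger step than that with FX1, at 0.931 times in GFP-low and 0.925 times in GFP-high cells. Between gates with the trends removed, MT-ATP8 and MT-ATP6 were at 0.03 and 0.02 under FX1 and at -1.21 and -1.15 under DMSO. MT-ND4L and MT-ND4 were at 0.14 and 0.32 and at -1.04 and -0.81.

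By contrast, the mRNAs MT-ND1, MT-CYB, MT-ND5 and MT-CO1 gained within the mRNA total with FX1 in both gates. MT-ND1 changed by 0.35 ± 0.014 in GFP-low cells and 0.38 ± 0.014 in GFP-high cells, and MT-CYB by 0.18 ± 0.013 and 0.30 ± 0.013, all in the test relative to the mRNA total (adjusted p between 1.5e-89 and 1.4e-31). MT-ND5 changed by 0.18 ± 0.013 and 0.13 ± 0.013 and MT-CO1 by 0.05 ± 0.012 and 0.08 ± 0.012 in the same test. MT-CO1 made up 31.0% ± 0.213 of mRNA counts in GFP-low FX1, 30.0% ± 0.041 in GFP-low DMSO, 27.2% ± 0.274 in GFP-high FX1 and 25.7% ± 0.370 in GFP-high DMSO. It was higher in GFP-low cells by 0.19 ± 0.012 under FX1 and by 0.22 ± 0.012 under DMSO.

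In the comparisons between gates, the same scale called 2 mRNAs higher and 9 lower in GFP-low cells under FX1, where 15% and 40.2% of all genes were, 55.2% in all, and 4 higher and 8 lower under DMSO, where 88% and 0.487% of all genes were, 88.5% in all. In the test of the difference between gates it called 4 higher and 4 lower, where 0.235% and 78.8% of all genes were, 79% in all. Besides MT-ND6, the called members of that difference lay between -0.20 for MT-ND2 and 0.21 for MT-CO2.

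**Figure D4:**
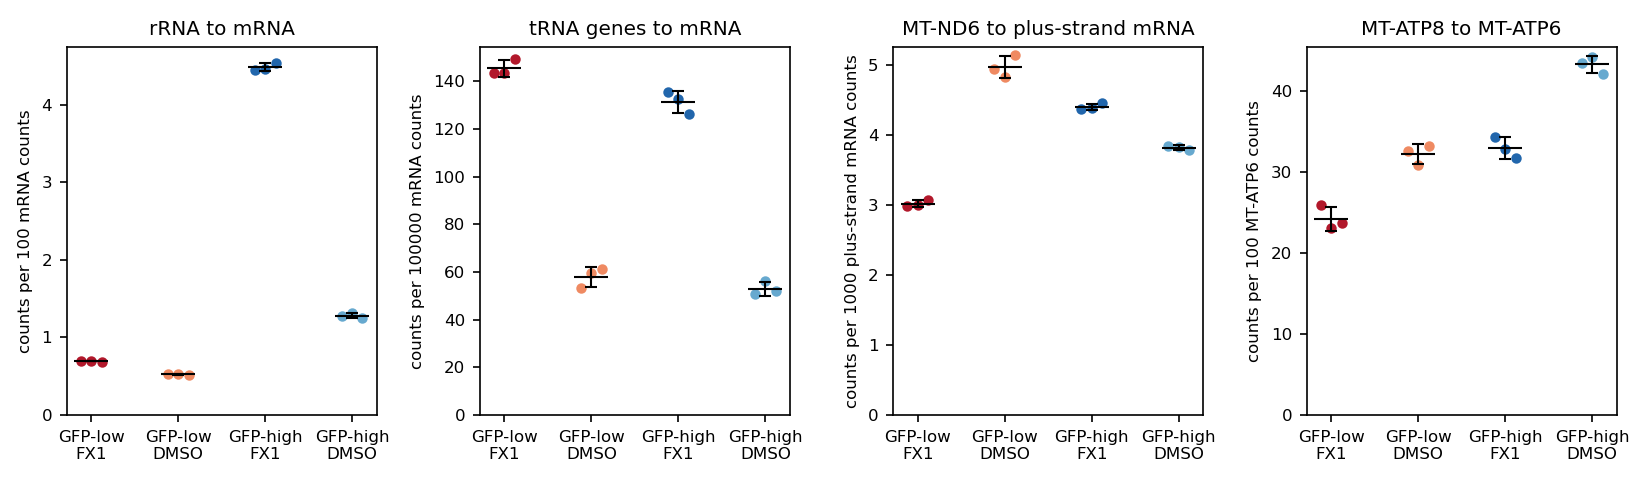
Ratios of counts within the mitochondrial transcripts, by group; dots are libraries, bars the mean and SD of 3 libraries, with each axis starting at 0. The rRNA ratio is highest in GFP-high FX1, the tRNA ratio is high in both FX1 groups, MT-ND6 is lowest in GFP-low FX1 and highest in GFP-low DMSO, and the MT-ATP8 ratio is lowest in GFP-low FX1 and highest in GFP-high DMSO.

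Both mitochondrial rRNAs rose with FX1 in both gates, also in GFP-high cells, where all mRNAs fell. MT-RNR1, the small-subunit 12S rRNA at chrM:648-1601, had 128, 127 and 129 CPM in GFP-low FX1 and 90.3, 90.7 and 88.2 CPM in GFP-low DMSO. It had 809, 829 and 847 CPM in GFP-high FX1 and 356, 372 and 350 CPM in GFP-high DMSO. All 4 groups were apart, with GFP-high FX1 far above the rest. MT-RNR1 rose with FX1 by 0.51 ± 0.023 in GFP-low cells and by 1.2 ± 0.015 in GFP-high cells (adjusted p = 1.3e-56 and 1.6e-151). The large-subunit 16S rRNA MT-RNR2, at chrM:1671-3229, averaged 201 ± 1.95, 154 ± 2.03, 1022 ± 19.1 and 714 ± 17.6 CPM in GFP-low FX1, GFP-low DMSO, GFP-high FX1 and GFP-high DMSO. It rose by 0.39 ± 0.018 in GFP-low cells and by 0.52 ± 0.014 in GFP-high cells.

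Between gates both rRNAs were several-fold lower in GFP-low cells. MT-RNR1 changed by -2.69 ± 0.017 under FX1 and by -2.0 ± 0.020 under DMSO, and MT-RNR2 by -2.34 ± 0.015 and -2.22 ± 0.017. The FX1 effect was smaller in GFP-low cells for both, with a difference of -0.69 ± 0.028 for MT-RNR1 and -0.13 ± 0.023 for MT-RNR2 (adjusted p = 2.3e-61 and 1.2e-06). The ratio of MT-RNR1 to MT-RNR2 counts was 0.636 ± 0.00683 in GFP-low FX1, 0.583 ± 0.0164 in GFP-low DMSO, 0.811 ± 0.00834 in GFP-high FX1 and 0.503 ± 0.00467 in GFP-high DMSO. Per 100 mRNA counts there were 0.694, 0.525, 4.48 and 1.28 rRNA counts in the same 4 groups.

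These rRNA counts are what remained after depletion. The nuclear rRNA genes took 0.0213% ± 0.000694 of counts in GFP-low FX1, 0.0136% ± 0.000907 in GFP-low DMSO. They took 0.0120% ± 0.000435 in GFP-high FX1. In GFP-high DMSO they took 0.00404%, 0.00405% and 0.0166% in replicates 1, 2 and 3. With FX1 in GFP-low cells the nuclear rRNA share was 1.56 times and the mitochondrial rRNA share 1.41 times that with DMSO, without overlap between the groups (exact permutation p = 0.1 each). Under FX1 the nuclear rRNA share was higher in GFP-low than in GFP-high cells and the mitochondrial rRNA share lower. Replicate 3 of GFP-high DMSO had 0.0973% mitochondrial rRNA, against 0.0992% and 0.102% in the other two. How far depletion differed between libraries for the mitochondrial rRNAs themselves was not tested.

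Counts on tRNA genes relative to mRNA were higher with FX1 in both gates. Per 100000 mRNA counts there were 143, 143 and 149 tRNA counts in GFP-low FX1 and 53.3, 59.6 and 61.3 in GFP-low DMSO. In GFP-high cells there were 136, 132 and 126 with FX1 and 50.6, 56.0 and 52.2 with DMSO. FX1 libraries stood 2.50-fold above DMSO libraries in GFP-low cells and 2.48-fold in GFP-high cells, with no overlap (exact permutation p = 0.1 each). In this ratio the DMSO groups of the 2 gates overlapped. As a share of all counts, the tRNA rise with FX1 was 2.67-fold in GFP-low and 1.31-fold in GFP-high cells. The mRNA share with FX1 was 1.07 and 0.526 times that with DMSO in the same gates. Libraries held between 684 and 3083 tRNA counts in all, so single tRNA genes rest on few counts. Mature tRNAs and uncut precursors cannot be told apart in these counts.

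For single tRNA genes on the library scale, 15 of the 21 tested were called higher with FX1 in GFP-low cells and 1 lower, and 12 higher and 3 lower in GFP-high cells. Of all tested genes, 33.7% were called higher and 34.3% lower in GFP-low cells, and 33.8% and 34.6% in GFP-high cells. MT-TT, the threonine tRNA, had 12.7, 12.2 and 12.4 CPM in GFP-low FX1 and 3.77, 4.50 and 4.57 CPM in GFP-low DMSO. It had 8.54, 8.30 and 9.01 CPM in GFP-high FX1 and 4.28, 4.63 and 6.03 CPM in GFP-high DMSO. Its libraries separated by treatment in each gate, with rises of 1.54 ± 0.10 in GFP-low and 0.80 ± 0.11 in GFP-high cells (adjusted p = 3.4e-35 and 5.3e-12). MT-TW, the tryptophan tRNA, averaged 12.6 ± 0.574, 3.13 ± 0.353, 9.82 ± 0.528 and 4.36 ± 0.243 CPM in GFP-low FX1, GFP-low DMSO, GFP-high FX1 and GFP-high DMSO. It rose by 2.00 ± 0.11 and 1.17 ± 0.11 in the 2 gates.

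The isoleucine, methionine, aspartate and lysine tRNA genes rose with FX1 in both gates as well. In GFP-low and GFP-high cells, MT-TI changed by 2.03 and 1.14, MT-TM by 2.22 and 0.50, MT-TD by 2.15 and 0.56 and MT-TK by 3.14 and 0.83. The second leucine tRNA gene MT-TL2 rose by 2.36 in GFP-low cells and was at 0.45 (adjusted p = 0.19) in GFP-high cells. MT-TP, the proline tRNA, rose by 1.47 and 0.32. In GFP-high cells MT-TM did not pass without GFP-high DMSO replicate 3 or GFP-high FX1 replicate 3 (0.40 and 0.33), MT-TP without either of replicates 1 and 2 of each of these groups (0.25 to 0.34), and MT-TK without any of the same 4 libraries (0.59 to 0.88). MT-TH, the histidine tRNA, at 1.41 and 0.59, lost its call in GFP-high cells without GFP-high DMSO replicate 2 or 3 (0.55 each) or GFP-high FX1 replicate 1 (0.27). By DESeq2, MT-TK, MT-TH and MT-TP did not pass in GFP-high cells (adjusted p = 0.054, 0.064 and 0.087).

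MT-TQ, the glutamine tRNA, rose by 1.07 and 0.60 in the 2 gates, and MT-TG and MT-TR, with 0 to 17 and 0 to 29 counts per library, were called higher in both, at 1.89 and 2.40 and at 3.11 and 1.96. MT-TC rose by 1.75 in GFP-low cells, where MT-TE at 0.63 and MT-TA at 0.60 lost their calls without single libraries (0.52 to 0.62 and 0.52 to 0.56). These libraries were GFP-low DMSO replicates 1 and 2 and GFP-low FX1 replicate 2 for MT-TE, and GFP-high DMSO replicates 1 and 2, GFP-low DMSO replicates 1 and 3 and GFP-low FX1 replicate 1 for MT-TA. MT-TA was called lower with FX1 in GFP-high cells, at -0.91 ± 0.25 (adjusted p = 0.00056). MT-TV, MT-TY and MT-TS2 passed in neither gate, although MT-TV passed in GFP-high cells at 1.09 (adjusted p = 0.019) with GC and length trends removed, as did MT-TL2 at 0.76 (adjusted p = 0.024) and MT-TE at 0.85 (adjusted p = 0.008). MT-TS2 passed in GFP-high cells at -0.84 when only the compared groups were fitted. MT-TY passed in GFP-low cells at 1.72 without GFP-low DMSO replicate 3. MT-TC passed in GFP-high cells at 1.16 without GFP-high DMSO replicate 1.

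MT-TF and MT-TL1, which border the rRNAs, moved in opposite directions in GFP-high cells. MT-TF, the phenylalanine tRNA that precedes MT-RNR1, had 1.18, 1.21 and 1.33 CPM in GFP-low FX1 and 1.80, 1.87 and 2.47 CPM in GFP-low DMSO. It had 3.07, 2.90 and 3.17 CPM in GFP-high FX1 and 10.1, 13.5 and 8.62 CPM in GFP-high DMSO. FX1 libraries lay below DMSO libraries in each gate, and MT-TF fell by 0.72 ± 0.20 in GFP-low cells and by 1.83 ± 0.13 in GFP-high cells (adjusted p = 0.0006 and 5.6e-33). Per 1000 MT-RNR1 counts, MT-TF had 9.67 ± 0.598, 22.8 ± 4.46, 3.68 ± 0.157 and 29.7 ± 5.89 counts in GFP-low FX1, GFP-low DMSO, GFP-high FX1 and GFP-high DMSO. MT-TL1, the leucine tRNA that follows MT-RNR2, rose with FX1 in GFP-high cells by 1.35 ± 0.24 (adjusted p = 8.2e-08) and was at 0.02 (adjusted p = 0.97) in GFP-low cells.

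MT-TS1, the serine tRNA gene on the minus strand, averaged 4.32 ± 0.452, 4.78 ± 0.445, 4.38 ± 0.363 and 5.43 ± 0.0964 CPM in GFP-low FX1, GFP-low DMSO, GFP-high FX1 and GFP-high DMSO. The change with FX1 was -0.14 ± 0.13 in GFP-low cells (adjusted p = 0.33) and -0.31 ± 0.13 in GFP-high cells (adjusted p = 0.021), and this call was lost without GFP-high DMSO replicate 2 or GFP-high FX1 replicate 3, at -0.29 and -0.24. It was also lost with library totals, at -0.22, and with GC and length trends removed, at -0.09. With the trends removed MT-TS1 instead passed as lower with FX1 in GFP-low cells, at -0.32 (adjusted p = 0.02), and in GFP-low against GFP-high cells under FX1, at -0.35 (adjusted p = 0.014). The median change with FX1 over the 14 plus-strand tRNA genes was 1.95 in GFP-low and 0.79 in GFP-high cells, and over the 7 tested minus-strand genes 0.91 and 0.48. Over the 21 tested tRNA genes this change ran against GC content, with Spearman's rho of -0.63 in GFP-low and -0.57 in GFP-high cells. The part that GC content had was not tested. Whether reads were counted by strand is not given in the sources used here.

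**Figure D5:**
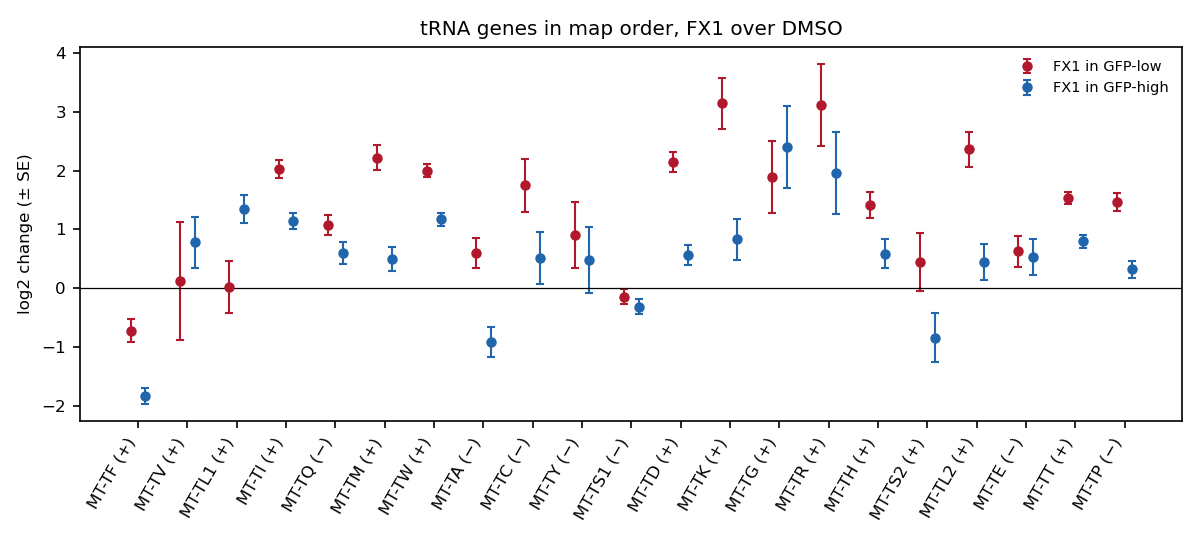
Log2 change (± SE) with FX1 over DMSO in each gate for the 21 tested tRNA genes in map order, with the strand in brackets. Most points lie above 0 in both gates, MT-TF lies below 0 in both, and genes with few counts, such as MT-TV and MT-TR, have wide errors.

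Between gates the tRNA genes gave different counts of calls under each treatment. Under FX1, 11 were called higher in GFP-low cells and 3 lower, and the lower ones were MT-TF at -1.32, MT-TV at -3.60 and MT-TL1 at -3.32, the 3 tRNA genes that flank the rRNAs, where 30.2% of all tested genes were called higher and 26.7% lower. MT-TV lies between the rRNAs and had 1 to 3 counts per library in GFP-low FX1 and 17 to 27 in GFP-high FX1. MT-TA, one of the 11 at 0.56, lost its call without any one GFP-high DMSO or GFP-low FX1 library and without GFP-high FX1 replicate 1 or 3 (0.35 to 0.62). MT-TE at 0.72 lost its call without GFP-high FX1 replicate 1, at 0.56, and MT-TC passed at 1.01 without GFP-high FX1 replicate 2. With GC and length trends removed MT-TQ lost its call, at 0.23 (adjusted p = 0.21), and MT-TK gained one, at 0.70 (adjusted p = 0.043). Under DMSO, edgeR's quasi-likelihood test called 0 tRNA genes higher in GFP-low cells and 11 lower, where 21.7% of all tested genes were called higher and 24.4% lower. At an unadjusted p under 0.05, 1 was higher, MT-TE, and DESeq2 called 0 of all mitochondrial genes higher.

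Under DMSO the same 3 genes beside the rRNAs had the lowest values, -2.42 for MT-TF, -2.94 for MT-TV and -1.99 for MT-TL1. MT-TG, with 0, 5 and 0 counts in GFP-high DMSO, passed as higher once replicate 2 of that group was left out. MT-TI at -0.50 lost its call without GFP-high DMSO replicate 2, at -0.39, and MT-TS2 at -1.29 without GFP-high DMSO replicate 3 or GFP-low DMSO replicate 2, at -1.03 and -0.70. MT-TI also lost it with library totals, at -0.37 (adjusted p = 0.076), and with GC and length trends removed, at -0.39 (adjusted p = 0.073). MT-TW at -0.48 lost its call with the trends removed, at -0.31 (adjusted p = 0.057). MT-TC passed at -1.59 without GFP-low DMSO replicate 1. MT-TE at 0.61 (adjusted p = 0.088) was called higher with library totals, at 0.75, and with GC and length trends removed, at 0.80. In the test of the difference of the FX1 effect, 11 tRNA genes were called higher, from 0.74 for MT-TT to 2.31 for MT-TK, and MT-TL1 lower, at -1.33, where 14.8% of all tested genes were called higher and 16.5% lower. The MT-TL1 call was lost, at -1.27 to -1.10, without GFP-low FX1 replicate 2, GFP-low DMSO replicate 1 or 3, GFP-high FX1 replicate 2 or 3, or GFP-high DMSO replicate 2. The MT-TH call, at 0.82, was lost, at 0.63 to 0.84, without GFP-low FX1 replicate 2 or 3, GFP-low DMSO replicate 2 or 3, GFP-high FX1 replicate 2 or 3, or any GFP-high DMSO library. MT-TC passed at 2.06 and 1.77 without GFP-low DMSO replicate 1 or GFP-high FX1 replicate 2, and MT-TS2 at 2.14 without GFP-low DMSO replicate 3.

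Copies of mitochondrial genes in the nuclear genome share sequence with the genes on chromosome M, and reads may have been split between them. The table held 404 such genes by name, which took 0.0340% ± 0.00028 of counts in GFP-low FX1, 0.0274% ± 0.000661 in GFP-low DMSO, 0.0266% ± 0.000235 in GFP-high FX1 and 0.0593% ± 0.00287 in GFP-high DMSO. MTATP6P1, the most abundant, averaged 136 ± 1.97, 147 ± 7.17, 145 ± 3.55 and 453 ± 25.8 CPM in these groups, and had 6.72, 6.71, 7.42 and 9.63 counts per 100 of MT-ATP6. MTND2P28 averaged 109 ± 1.05, 59.3 ± 1.49, 60.7 ± 0.758 and 102 ± 2.50 CPM and rose with FX1 by 0.88 ± 0.031 in GFP-low cells, where MT-ND2 was at -0.03. It fell with FX1 by 0.74 ± 0.031 in GFP-high cells. MTCO1P12 changed by 0.58 ± 0.096 and -0.33 ± 0.096 in the 2 gates. Values of these copies and of MT-ATP6, MT-ND2 and MT-CO1 are uncertain to that extent.

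The nuclear genes that serve mitochondrial DNA and RNA did not all move in a single direction with FX1. More of the processing and decay genes rose than fell in both gates, as given below beside the shares of all genes. POLRMT, the mitochondrial RNA polymerase, averaged 120 ± 1.22 CPM in GFP-low FX1, 52.8 ± 1.74 in GFP-low DMSO, 68.1 ± 1.05 in GFP-high FX1 and 40.9 ± 1.61 in GFP-high DMSO. It rose with FX1 by 1.18 ± 0.032 in GFP-low and 0.74 ± 0.037 in GFP-high cells (adjusted p = 1.8e-98 and 2.9e-52). TFAM, which packages mitochondrial DNA and starts transcription, changed by -0.21 ± 0.025 and 0.13 ± 0.023, and the initiation factor TFB2M by 0.21 ± 0.050 and 0.41 ± 0.049. The elongation factor TEFM was at 0.10 (adjusted p = 0.32) and rose by 0.29 in GFP-high cells. TFB1M, which methylates the 12S rRNA, fell by 0.84 and 0.78. MRPL12, a ribosomal protein that also binds POLRMT, averaged 32.6 ± 3.05, 27.3 ± 1.09, 32.8 ± 2.33 and 13.7 ± 0.738 CPM in GFP-low FX1, GFP-low DMSO, GFP-high FX1 and GFP-high DMSO, and rose with FX1 by 0.27 and 1.27. Of the termination factor family, MTERF3 fell by 0.14 in GFP-low cells and MTERF4 by 0.20 in GFP-high cells. Of the 9 tested genes of the transcription list, 3 rose and 3 fell in GFP-low cells, and 5 rose and 4 fell in GFP-high cells. Over all tested genes 33.7% were called higher and 34.3% lower with FX1 in GFP-low cells, and 33.8% and 34.6% in GFP-high cells.

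Among RNA processing and decay factors, 14 of 30 rose and 6 fell with FX1 in GFP-low cells (median log2 change 0.09), where 33.7% of all tested genes were called higher and 34.3% lower. In GFP-high cells 17 rose and 7 fell (median 0.23), where 33.8% and 34.6% of all genes were called, and the median over all genes was -0.01 in both gates. LRPPRC, which stabilises mitochondrial mRNAs, averaged 633 ± 3.51, 829 ± 9.72, 772 ± 7.18 and 923 ± 1.93 CPM in GFP-low FX1, GFP-low DMSO, GFP-high FX1 and GFP-high DMSO. It fell with FX1 by 0.39 ± 0.013 and 0.26 ± 0.013. Its partner SLIRP was at -0.05 (adjusted p = 0.20) in GFP-low cells and fell by 0.12 ± 0.035 in GFP-high cells. ELAC2, which cuts the 3′ ends of tRNAs, rose by 0.40 and 0.25, the RNase P subunit HSD17B10 by 0.49 and 0.70, the RNA-binding protein FASTK by 1.13 and 0.77 and the pseudouridine synthase PUS1 by 0.80 and 0.79. PNPT1, the exonuclease of the degradosome, fell by 0.26 in each gate, and its helicase SUPV3L1 rose by 0.12 in GFP-low cells and was at 0.05 (adjusted p = 0.20) in GFP-high cells. MRM2, an rRNA methyltransferase with a mean level under 1 CPM, fell by 0.75 in GFP-low cells (adjusted p = 0.021).

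Of 15 genes for mitochondrial DNA maintenance, 6 rose and 7 fell with FX1 in GFP-low cells and 3 rose and 6 fell in GFP-high cells, where 33.7% of all tested genes were called higher and 34.3% lower in GFP-low cells and 33.8% and 34.6% in GFP-high cells. TWNK, the replicative helicase, rose by 0.75 ± 0.035 and 0.67 ± 0.036, and the polymerase POLG by 0.57 ± 0.027 and 0.36 ± 0.028. The pyrimidine nucleotide carrier SLC25A36 fell by 0.80 and 0.56, and the nuclease and helicase DNA2 by 0.63 and 0.53. RRM2B, a ribonucleotide reductase subunit, fell by 0.48 in GFP-low cells, and TK2, the mitochondrial thymidine kinase, at a mean level under 1 CPM, by 1.89 in GFP-high cells (adjusted p = 0.0066). Of 11 regulators of mitochondrial genes, 5 rose and 3 fell in GFP-low cells and 6 rose and 3 fell in GFP-high cells, to be read against the same shares of all genes. Their median changes with FX1 were 0.02 and 0.16, against -0.01 over all genes in each gate. The coactivator PPARGC1B rose by 1.09 and 0.96, the nuclear receptor ESRRA by 0.93 and 0.84 and MYC by 0.95 and 0.80.

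Between gates, GFP-low cells had less TFAM and more POLRMT. The log2 change of TFAM was -0.63 ± 0.023 under FX1 and -0.29 ± 0.024 under DMSO, and that of POLRMT was 0.82 ± 0.030 and 0.37 ± 0.039. LRPPRC changed by -0.29 and -0.16, SLIRP by -0.22 and -0.28 and PNPT1 by -0.38 and -0.39, under FX1 and DMSO in turn. MRPL12 was higher in GFP-low cells under DMSO, by 1.00 ± 0.064, and at 0.00 (adjusted p = 0.99) under FX1, and MTERF1 changed by -0.25 and -0.34. ELAC2 was higher by 0.13 under FX1 and at -0.02 (adjusted p = 0.63) under DMSO. Of the 30 processing and decay genes, 7 were higher and 17 lower in GFP-low cells under FX1, and 5 higher and 15 lower under DMSO, with medians of -0.14 and -0.07 beside 0.08 and 0.03 over all genes. Of all tested genes, 30.2% were called higher and 26.7% lower under FX1, and 21.7% and 24.4% under DMSO. FASTK was higher by 0.80 and 0.44, and PDE12 and TRMT10C, a deadenylase and an RNase P subunit, changed by -0.55 and -0.41 under FX1. The single-stranded DNA binding protein SSBP1 changed by -0.47 and -0.38, RRM2B by -0.56 under FX1 and the topoisomerase TOP1MT by -0.41 under DMSO. Of the 15 maintenance genes, 4 were higher and 7 lower in GFP-low cells under FX1, with changes between -0.56 and 1.99. Under DMSO 1 was higher and 8 lower, with changes between -0.41 and 0.78. Among the regulators, GABPA changed by -0.62 under FX1 and the coactivator PPRC1 by -0.27 under DMSO. Of the 11 regulators, 5 were higher and 4 lower in GFP-low cells under FX1, and 4 higher and 3 lower under DMSO. Their medians, 0.08 and 0.03, were those over all genes, and the highest changes were 0.32 and 0.24.

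Nuclear genes also encode subunits that pair with the 13 mitochondrial proteins. Of 85 tested nuclear genes for respiratory chain and ATP synthase subunits, 51 rose and 10 fell with FX1 in GFP-high cells, with a median of 0.16, where all 13 mitochondrial mRNAs fell with a median of -1.09 and 33.8% of all tested genes were called higher and 34.6% lower. In GFP-low cells 39 rose and 24 fell, with a median of 0.06, where 33.7% and 34.3% of all genes were called. Under DMSO 31 were higher and 25 lower in GFP-low than in GFP-high cells, with a median of 0.01, against -0.93 for the mitochondrial mRNAs, where 21.7% and 24.4% of all genes were called. Whether these medians differ was not tested. Of 77 tested mitochondrial ribosomal protein genes, 26 rose and 33 fell with FX1 in GFP-low cells and 29 rose and 27 fell in GFP-high cells, against the same shares of all genes. In GFP-low cells 43 of them were lower and 9 higher than in GFP-high cells under FX1, where 26.7% of all genes were called lower and 30.2% higher. Under DMSO 42 were lower and 12 higher, where 24.4% and 21.7% of all genes were called.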

How the data were processed

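Per the submitters' processing notes, the authors used FastQC, STAR, featureCounts (Subread) and R 4.2.1 with hg38. They deposited whole-number read counts per gene for 12 libraries. The annotation release, the strand setting and the handling of reads over several genes or several places are not given in the sources used here. Per the labels' protocols, total RNA was depleted of rRNA with a RiboErase kit. 3 lines forming 1 broken record were left out, which left 60707 genes.

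From these counts, CPM were computed with TMM library scaling, and edgeR 4.0.16 (R 4.3.3) quasi-likelihood tests were run over 17859 genes after its standard low-count filter. Each fit had 4 group terms and all 12 libraries, and p-values were adjusted by Benjamini-Hochberg, called at 0.05. A second fit scaled each library to its total over the 13 mitochondrial mRNAs. Values after ± are SE for log2 changes and SD for levels and shares. Shares and ratios were compared by two-sided exact permutation tests, and a share's interval is a 95% Wilson interval. DESeq2 1.42.0 was an alternative. The statistics were tested on simulated data. Replicates of a group differed by more than sampling noise, with 1.7 to 2.01 times the variance expected from counting.

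The mitochondrial genes and the gene lists were chosen with earlier results of these data known. Named were all mRNA and rRNA genes, every tested tRNA gene, the 3 most abundant nuclear copies, 11 nuclear factors and up to 3 further called members of each nuclear list per comparison with the largest change.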

Additional observations from a re-analysis of the deposited data

Results flagged for a closer look

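The FX1 effect differed between gates, by edgeR's quasi-likelihood test of the difference (GFP-low minus GFP-high, log2), for 27 of the 36 tested mitochondrial genes, where 31.3% of all tested genes were called. Among mRNAs the differences were 1.03 for MT-ND1, 0.86 for MT-ND2, 1.08 for MT-ND3, 1.10 for MT-ND4, 1.11 for MT-ND4L, 1.10 for MT-ND5 and 0.13 for MT-ND6. They were 0.93 for MT-CYB, 1.03 for MT-CO1, 1.26 for MT-CO2, 0.92 for MT-CO3, 1.15 for MT-ATP6 and 1.13 for MT-ATP8. The rRNAs differed in the other direction, by -0.69 for MT-RNR1 and -0.13 for MT-RNR2.

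Among tRNA genes the differences were 1.10 for MT-TF, -1.33 for MT-TL1, 0.89 for MT-TI, 1.71 for MT-TM, 0.84 for MT-TW, 1.5 for MT-TA and 1.59 for MT-TD. They were 2.31 for MT-TK, 0.82 for MT-TH, 1.91 for MT-TL2, 0.74 for MT-TT and 1.15 for MT-TP.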

How the results depend on the processing

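With GC and length trends removed, chosen after seeing the data, 4 mitochondrial genes rather than 7 were called lower with FX1 in GFP-low cells, and MT-ND2 (0.26), MT-ATP8 (0.17), MT-ATP6 (0.06), MT-ND3 (0.52), MT-ND4L (0.34) and MT-ND4 (0.19) turned positive. In GFP-low cells under FX1, MT-ATP8 (0.03) and MT-ND4L (0.14) did. With library totals, also chosen after seeing the data, MT-ND3 was at 0.05 with FX1 in GFP-low cells, and the median of all genes moved to 0.18, 0.16 and 0.09 for GFP-low under FX1, GFP-low under DMSO and FX1 in GFP-high cells. 1 gene was called higher in GFP-low cells under DMSO with either alternative, and 0 to 1 when single libraries were left out. Relative to the mRNA total with trends removed, MT-ND2 (0.02), MT-CO2 (-0.05), MT-ND3 (0.28) and MT-ND4L (0.10) turned with FX1 in GFP-low cells, MT-ND3 (0.13) with FX1 in GFP-high cells, and MT-CO2 (-0.06), MT-ND3 (0.15) and MT-ND4 (0.07) in GFP-low cells under FX1. With all 37 genes as the total, MT-ND1 (0.02), MT-CO3 (0.05) and MT-ND4 (0.04) turned there, 4 mRNAs were called higher, and 7 for the difference. The log2 share was -0.94 for FX1 in GFP-high cells and -0.77 for GFP-low under DMSO as a ratio to nuclear counts. With the 13 mRNAs alone it was -0.93 for FX1 in GFP-high cells and 0.30 for GFP-low under FX1. The causes were not tested. Same-numbered libraries of different groups did not deviate together (r between -0.045 and 0.02 over 18 pairs), and with the replicate number as a block 264 results kept their direction and call and 1 gained a call. Of 2935 values of single genes with 1 library left out, 69 lost and 20 gained a call and 0 reversed. Of 1714 under the other alternatives, 39 lost and 27 gained a call and 20 reversed, the last being those given above. Depth limits the tRNA genes, several of which had 0 to 5 counts in some libraries.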
